A study of Macaca fascicularis with 6 samples.

Results

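Matrix fibroblasts were taken from single-cell RNA sequencing of the lungs of male cynomolgus monkeys (Macaca fascicularis, 3 to 5 years old). There were 3 monkeys in the control group (replicates 1, 2 and 3) and 3 in the asthma group (replicates 8, 10 and 11). A member was a quality-controlled cell with UMIs, the counted RNA molecules, of at least 3 of the 7 genes DCN, COL1A1, COL1A2, LUM, SCARA5, FBLN1 and OGN. It had no UMI of PTPRC (leukocytes), PECAM1 (endothelium) or SOSTDC1, fewer than 50 UMIs of ITLN1 (intelectin 1, abundant in mesothelial cells), at most 1 of the contractile genes ACTG2, CNN1 and DES and at most 1 of the pericyte genes COX4I2, HIGD1B, NOTCH3 and KCNJ8. Members were thus chosen by their measured UMIs of these genes, and the rule gave 639 members among 25388 cells, 244 from control and 395 from asthma lungs. According to the methods, the asthma group was sensitized under the skin with Ascaris suum antigen (1 mg/mL, weeks 1, 3 and 5) and challenged through the nose (10 mg/mL, weeks 6, 8, 10 and 11), the control group received saline, and lungs were collected in week 11. Each monkey gave 1 library of enzymatically dissociated, live-enriched cells, so that the number of cells recovered also depends on dissociation. All 6 animals were male, and the tissue is given as lung by the labels, and both as the large airways and as parenchyma in the study's text, and the airway and alveolar parts of each sample were not measured here.

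Matrix fibroblasts build and maintain the collagen and proteoglycan scaffold of the lung. In the lung 2 broad kinds are known, adventitial fibroblasts in the sleeves around airways and larger vessels, which express PI16, MFAP5 and CLEC3B, and alveolar fibroblasts in the alveolar walls, which express NPNT, ITGA8, INMT and the transcription factor TCF21. Fibroblasts also secrete chemokines and complement components, and in asthma they are studied for the thickening of the airway wall.

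Genes that the rule did not use set the members apart from T cells. COL6A2, a type VI collagen chain, was found in 96.2% of the 639 members (86.7 to 100% by library) and in 2.98% of 8513 T cells, which should lack it. What T cells carry of such genes can be free RNA or come from doublets, and these were not told apart. MGP, matrix Gla protein, was found in 97.5% and 4.91% (1.78 to 13.7% of T cells by library, highest in asthma 11), and PDGFRA, the platelet-derived growth factor receptor of fibroblasts, in 37.2% and 0.223%. The median depth per member was between 3584 UMIs (asthma 11) and 7438 UMIs (control 2), and per T cell between 3282 and 4830 UMIs. Over the summed members, in plain CPM (UMIs of a gene scaled to a total of 1000000), PDGFRA stood at 110 CPM against 0.9 CPM in T cells, and COL6A2 at 3162 CPM against 27.2 CPM. ACTA2, smooth muscle actin, stood at 24.6 CPM in the members (84 UMIs) and at 9310 CPM in the 64 cells with the contractile genes. POSTN, periostin, had 11 UMIs in all members (3.23 CPM) and 3075 CPM in the 154 cells with the pericyte genes. COL6A2 was also high in SOSTDC1 cells, which met the rule but for a SOSTDC1 UMI (2169 CPM). It stood at 1344 CPM in the cells with the pericyte genes and at 763 CPM in those with the contractile genes. The label therefore held for these markers against T cells, while COL6A2 and PDGFRA do not set the members apart from SOSTDC1 cells.

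Some members carried RNA of other cell types. The 7 epithelial markers summed to 16734 CPM in control 1 but 101 and 210 CPM in control 2 and 3 and 166, 310 and 1402 CPM in asthma 8, 10 and 11. Of the 3662 UMIs of SFTPC (surfactant protein C) among the members of control 1, 3565 came from a single cell, and in asthma 11 a single cell held 516 of 1036. The 5 mesothelial markers, of which ITLN1 was the most abundant and CALB2 had no UMI, summed to 870, 181 and 13 CPM in control 1, 2 and 3 and to 536, 102 and 26.8 CPM in asthma 8, 10 and 11. At least 20 UMIs of an epithelial or mesothelial marker were found in 18 members, 6 of them in control 1. Low amounts were more common, as an ITLN1 UMI was found in 6, 5 and 3 members of control 1, 2 and 3. In asthma 8, 10 and 11 it was found in 38, 25 and 20 members. Endothelial markers summed to 65.1 to 257 CPM, with CLDN5 at 0 UMIs and RAMP2 holding 333 UMIs, and T and NK cell markers to 13.3 to 88 CPM. B and plasma cell markers summed to at most 133 CPM, granulocyte markers to 200 CPM, macrophage and monocyte markers to 395 CPM (control 1, for each of the 3 lists), mast cell markers to 2.75 CPM and red blood cell markers to 13.3 CPM. Any pair of libraries shared 5 to 13 cell barcodes, 0.0928% to 0.241% of the smaller library, and no member shared a barcode with a member of another library.

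Most members were far from the limits of the rule. All 7 matrix genes were detected in 413 members (64.6%), and 55 had exactly 3, with a median of 7 DCN UMIs. The 86 cells that failed only for having 2 matrix genes had a median of 2 DCN UMIs. The summed members gave 241679, 460419 and 742734 UMIs in control 1, 2 and 3 and 570477, 364131 and 1027726 UMIs in asthma 8, 10 and 11, from libraries of 29014556 to 41489879 UMIs in all.

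The share of matrix fibroblasts among all cells did not separate the groups. Matrix fibroblasts made up 0.998% of 4509 cells in control 1, 1.88% of 3511 in control 2 and 3.27% of 4066 in control 3. They made up 1.77% of 4305 cells in asthma 8, 1.38% of 4719 in asthma 10 and 5.94% of 4278 in asthma 11. Asthma 11 was the highest library and asthma 8 and 10 lay within the control range. The mean was 2.05% ± 1.15 (SD, n = 3) in the control and 3.03% ± 2.53 (SD, n = 3) in the asthma group (two-sided exact permutation test, p = 0.7, where 0.1 is the smallest p that 3 against 3 allows). The difference of 0.977 percentage points turned to -0.478 without asthma 11 and to -3.03 when only cells without a PTPRC UMI were counted.

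The makeup of the matrix fibroblasts, split by marker lists, did not overlap between the libraries of the groups. These lists were chosen with earlier results of these data known. Members were called adventitial-leaning if they had UMIs of more genes of a list of 9 adventitial markers (PI16, MFAP5, DPP4, CD34, CLEC3B, PCOLCE2, IGFBP6, SFRP2 and CD248, of which 8 were in the files) than of a list of 9 alveolar markers (NPNT, TCF21, ITGA8, LIMCH1, INMT, GPC3, ROBO2, FGFR4 and PLEKHH2), and alveolar-leaning if the reverse. Adventitial-leaning cells made up 71.1% of the members of control 1 (32 of 45), 81.8% of control 2 (54 of 66) and 86.5% of control 3 (115 of 133). They made up 52.6% of asthma 8 (40 of 76), 36.9% of asthma 10 (24 of 65) and 23.2% of asthma 11 (59 of 254). Every asthma library was below every control library. The mean fell from 79.8% ± 7.87 (SD, n = 3) to 37.6% ± 14.7 (SD, n = 3), a difference of -42.2 percentage points at the smallest p the design allows (two-sided exact permutation test, p = 0.1). It was -35.0 without asthma 11. With cells thinned to 1500 UMIs and the rule applied again, where 3014 cells with fewer UMIs were left out, it was -38.9. The adventitial-leaning share of asthma 11 was 35.8% in that setting.

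Alveolar-leaning cells showed the opposite order, with 15.6%, 10.6% and 5.26% of the members in control 1, 2 and 3 and 27.6%, 55.4% and 56.7% in asthma 8, 10 and 11. Their mean was 10.5% ± 5.15 (SD, n = 3) in the control and 46.6% ± 16.4 (SD, n = 3) in the asthma group (two-sided exact permutation test, p = 0.1). Each control library held 7 alveolar-leaning cells, so that the 21 control cells of this kind are a small base. The classes are ranges of a count and not separate types, since 93 members had equal numbers of both kinds of genes and 157 were 1 gene apart. Members had a median of 4.5 adventitial and 1 alveolar genes in the control group, against 2 and 3 in the asthma group.

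**Figure D1:**
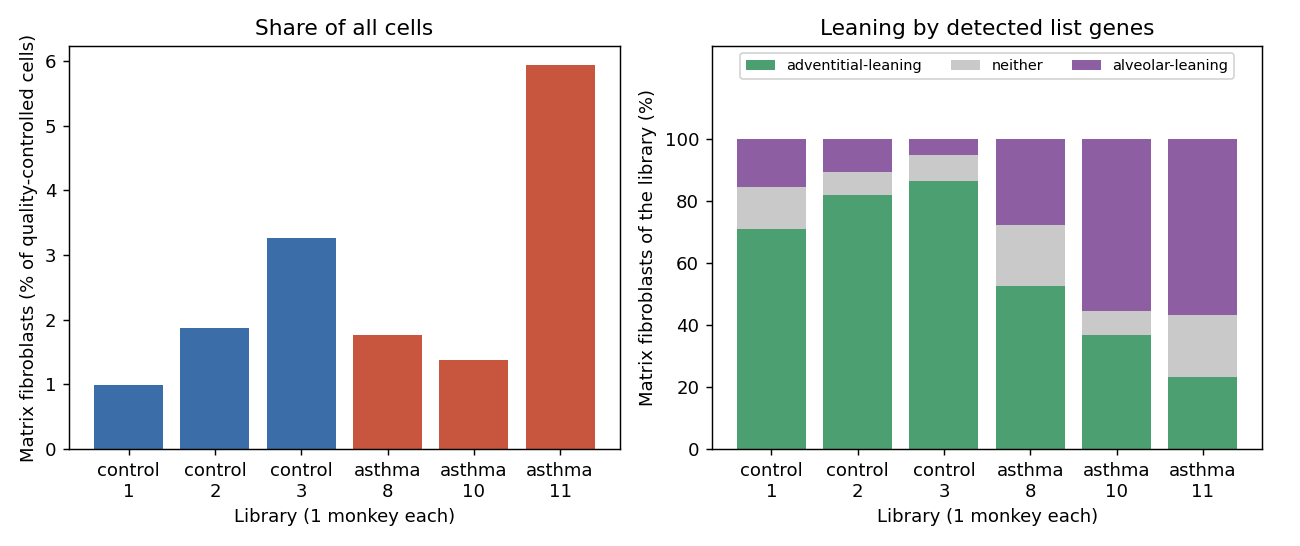
Left, matrix fibroblasts as a percentage of quality-controlled cells in each library (control blue, asthma red), from 0.998% to 5.94%. Right, the members of each library split into adventitial-leaning, neither and alveolar-leaning cells in percent, with 71.1 to 86.5% adventitial-leaning in the control libraries and 23.2 to 52.6% in the asthma libraries.

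The leanings were set by the detection of these list genes, so that the levels of the genes, which follow, restate the shares and do not add support to them. In the sums over members, levels are CPM after TMM scaling (a correction of library sizes) and differences are log2 fold changes of asthma against control with their standard error (SE), from the edgeR quasi-likelihood test over 6063 genes. A gene counted as a DEG at an adjusted p below 0.05 and a log2 fold change beyond 0.25 in either direction, which 22 of the 6063 genes (0.363%) met, and in 16% of the genes the asthma and control libraries did not overlap (8.77% higher and 7.24% lower in asthma). All 7 tested adventitial genes were lower in the asthma group (median log2 fold change -1.09, against 0.00 over all genes), and 1 of them was a DEG. MFAP5, a microfibril-associated glycoprotein, stood at 2041, 996 and 1049 CPM in control 1, 2 and 3 and at 434, 434 and 321 CPM in asthma 8, 10 and 11 (log2 fold change -1.78 ± 0.31 SE, adjusted p = 0.032). CLEC3B, tetranectin, stood at 22711, 15272 and 16185 CPM against 4004, 8913 and 1419 CPM (-1.92 ± 0.54 SE, adjusted p = 0.20), and CD34 at 506, 561 and 518 CPM against 199, 272 and 279 CPM (-1.08 ± 0.22 SE, adjusted p = 0.060). Neither pair of groups overlapped, but neither gene passed the threshold. PI16 overlapped between the groups, with its highest level in control 2 (4247 CPM). DPP4, too low for the test, had 22 UMIs in the control and 4 in the asthma members.

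All 8 tested alveolar genes were higher in the asthma group (median log2 fold change 1.55), again with 1 DEG. ITGA8, an integrin subunit, stood at 31.1, 40.2 and 14.5 CPM in the control and 85.6, 184 and 270 CPM in the asthma libraries (2.77 ± 0.47 SE, adjusted p = 0.030). FGFR4, a fibroblast growth factor receptor, stood at 4.44, 0 and 4.34 CPM against 50.3, 22 and 27.7 CPM (3.37 ± 0.65 SE, adjusted p = 0.053), with 4 UMIs in all control members. NPNT, nephronectin, stood at 35.5, 83 and 33.3 CPM against 132, 104 and 223 CPM (1.63 ± 0.38 SE, adjusted p = 0.10). INMT, an N-methyltransferase, overlapped through control 1 (115 CPM) and asthma 8 (108 CPM). TCF21 overlapped as well (0.40 ± 0.25 SE, adjusted p = 0.67). Since the members are summed, the share of each kind of cell and the level per cell cannot be told apart in these values.

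The collagen genes of the rule, given as levels with no test, stood apart in a single control library. With 1 library per animal, the monkey, the tissue piece and the library cannot be told apart. COL1A1, the alpha-1 chain of type I collagen, stood at 2924 and 2824 CPM in control 1 and 3 but at 41859 CPM in control 2, and at 13245, 7511 and 5683 CPM in asthma 8, 10 and 11. COL1A2, its partner chain, stood at 2161, 14546 and 2096 CPM in control 1, 2 and 3 and at 7228, 5146 and 4210 CPM in the asthma libraries. The asthma libraries thus lay above control 1 and 3 and below control 2 for both chains. COL3A1, type III collagen and not part of the rule, had the same order at 1593, 16869 and 1563 CPM against 7479, 4258 and 3542 CPM, with a log2 fold change of -0.39 ± 0.75 SE (adjusted p = 0.92) that turned to 1.68 (adjusted p = 0.14) without control 2. Most members of control 2 shared the high level, as COL1A1 took over 1% of the UMIs in 57 of its 66 members against 3 of 45 in control 1 and 8 of 133 in control 3. Control 2 was also highest for COL1A1 in other classes, at 11670 plain CPM in its 10 SOSTDC1 cells (832 to 6683 CPM elsewhere) and at 286 CPM in its T cells (1.29 to 114 CPM elsewhere). COL1A2 and COL3A1 were highest in its T cells too, but in the SOSTDC1 cells of control 2 COL1A2 (4856 CPM) was below its level in those of asthma 8 (4997 CPM), and COL3A1 (5182 CPM) was close to that of asthma 8 (5033 CPM). In control 2 the 2810 COL1A1 UMIs of the T cells were held by 99 of 1613 cells. The parts of free RNA and of doublets in these values were not tested.

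SPARC, a collagen-binding secreted protein, also stood out in control 2 at 9648 CPM, 3.15 times the next library, and MMP2, a matrix metalloprotease, at 2160 CPM, 1.86 times the next. Both were picked after their values were seen, as genes with at least 500 UMIs that were highest in control 2.

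The other 5 matrix genes of the rule ranged less widely between libraries than COL1A1 and COL1A2. DCN, decorin, stood at 28874, 34263 and 31694 CPM in control 1, 2 and 3 and at 20812, 18309 and 22799 CPM in asthma 8, 10 and 11. SCARA5, a ferritin receptor, stood at 1402, 1131 and 1536 CPM against 709, 783 and 646 CPM. For DCN and SCARA5 every asthma library was below every control library. In adventitial-leaning cells alone, pooled over libraries, DCN stood at 31429 plain CPM in the control and 26848 in the asthma group, and in alveolar-leaning cells at 15074 and 17852 CPM. LUM (lumican, 2079 to 5066 CPM), FBLN1 (fibulin 1, 1713 to 2683 CPM) and OGN (osteoglycin, 1033 to 2587 CPM) overlapped between the groups, with their highest level in control 2. Of the genes whose absence or limit defined the members, ITLN1 ranged from 4.34 CPM (control 3) to 737 CPM (control 1) and KCNJ8, a potassium channel subunit, stood at 48.8, 52.8 and 33.3 CPM in the control and at 14.9, 24.7 and 22.1 CPM in the asthma libraries. DES, CNN1, COX4I2 and NOTCH3 were at most at 18.6 CPM in any library, and ACTG2 and HIGD1B had no UMI.

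**Figure D2:**
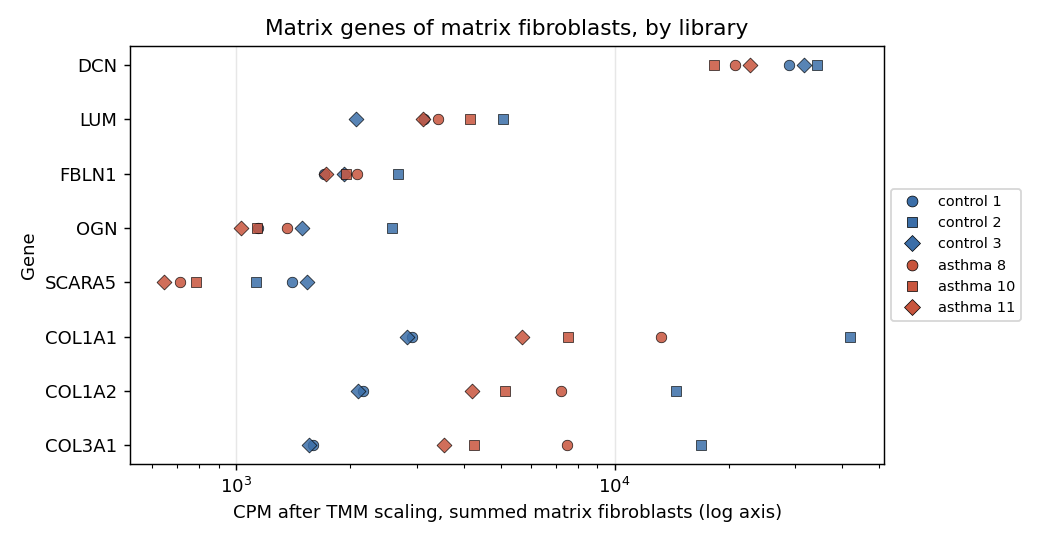
Level of 8 matrix genes in the summed matrix fibroblasts of each library, in CPM after TMM scaling on a log axis (control blue, asthma red, 1 marker shape per library). Control 2 stands at 41859 CPM for COL1A1, above the 2824 to 13245 CPM of the other libraries, and the groups are separate for DCN and SCARA5.

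Of the 5 genes with the most UMIs outside the rule, A2M and CLEC3B did not overlap between the groups and CFD, MGP and CST3 did. A2M, the protease inhibitor alpha-2-macroglobulin, stood at 3603, 3042 and 2223 CPM in the control and at 6751, 11234 and 12099 CPM in the asthma libraries (log2 fold change 1.76 ± 0.34 SE, adjusted p = 0.052), just short of the threshold. CFD, complement factor D, ranged from 6947 CPM (asthma 11) to 41276 CPM (control 3).

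The 22 DEGs were divided evenly, with 11 genes up-regulated and 11 downregulated in the asthma group (0.181% of the tested genes each), and for each of them the asthma libraries did not overlap with the control libraries. At an unadjusted p under 0.05 there were 610 genes (10.1%). The number rested on single libraries, as the fits without a library called 5 (control 1), 9 (control 2), 1 (control 3), 38 (asthma 8), 5 (asthma 10) and 12 genes (asthma 11), which also have fewer samples. CPXM2 was called in all 6 of these fits, TGM2 and ATP1B1 in 5, and ADRA1A, KDR and SLC29A1 in none, while all 22 kept their direction. DESeq2 called 30 up- and 32 downregulated genes, including the 22.

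Of the up-regulated DEGs, TGM2, transglutaminase 2, which cross-links matrix proteins, stood at 62.1, 42.7 and 47.8 CPM in control 1, 2 and 3 and at 194, 261 and 226 CPM in asthma 8, 10 and 11 (2.18 ± 0.25 SE, adjusted p = 0.0058). ATP1B1, the beta subunit of the sodium pump, stood at 53.2, 75.4 and 43.4 CPM against 326, 228 and 302 CPM (2.33 ± 0.27 SE, adjusted p = 0.0058). NFKBIZ, an inducible regulator of NF-kB target genes, stood at 53.2, 57.8 and 52.1 CPM against 186, 162 and 156 CPM (1.62 ± 0.22 SE, adjusted p = 0.014). These 3 genes had narrow ranges in both groups, and the lowest asthma library was above 2 times the highest control library.

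PPP1R14A, an inhibitor of myosin phosphatase that favours contraction, stood at 8.87, 52.8 and 17.4 CPM against 89.3, 162 and 212 CPM (2.52 ± 0.47 SE, adjusted p = 0.047). ADRA1A, the alpha-1A adrenergic receptor of contractile cells, had 2 UMIs in all control members and 69 in the asthma members, a ratio of 25.4 relative to the summed UMIs (95% counting interval 6.77 to 214, counting error only). ASIP, agouti signalling protein, an antagonist of melanocortin receptors, stood at 0, 17.6 and 13 CPM against 106, 135 and 374 CPM (4.12 ± 0.61 SE, adjusted p = 0.019). NKD2, an inhibitor of WNT signalling, stood at 8.87, 5.03 and 4.34 CPM against 37.2, 49.5 and 103 CPM (3.58 ± 0.56 SE, adjusted p = 0.020). The control levels of NKD2 and of LSAMP, a cell adhesion molecule (3.03 ± 0.49 SE), rested on 7 UMIs each. KDR, the VEGF receptor 2 (2.45 ± 0.41 SE), had 10 control and 88 asthma UMIs. MACF1, a linker of actin and microtubules, stood at 133, 189 and 159 CPM against 305, 522 and 538 CPM (1.49 ± 0.27 SE, adjusted p = 0.038). The 6 smooth muscle markers summed to 865, 339 and 479 CPM in the control and to 1005, 1190 and 1464 CPM in the asthma libraries, of which TAGLN held 3061 UMIs, ACTA2 84 and ACTG2 none, and their part in these DEGs was not tested.

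The downregulated DEG with the smallest adjusted p was CPXM2, a member of the carboxypeptidase family, which stood at 151, 206 and 98.4 CPM in control 1, 2 and 3 and at 18.6, 27.5 and 8.31 CPM in asthma 8, 10 and 11 (-3.23 ± 0.41 SE, adjusted p = 0.0097). OSR2, a transcription factor of connective tissue, stood at 62.1, 27.7 and 46.3 CPM against 7.45, 8.24 and 0.923 CPM (-3.31 ± 0.59 SE, adjusted p = 0.038), on 8 UMIs in the asthma members. FXYD6, a modulator of the sodium pump, stood at 186, 259 and 229 CPM against 72.6, 54.9 and 14.8 CPM (-2.36 ± 0.43 SE, adjusted p = 0.042). All 3 genes had their lowest level in asthma 11, as did MFAP5 and ANGPTL5, while SLC29A1 and CTSH were slightly lower in asthma 8.

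Among the others, ANGPTL5, an angiopoietin-like secreted protein, stood at 328, 261 and 323 CPM against 59.6, 107 and 36 CPM (-2.25 ± 0.34 SE, adjusted p = 0.019). SLC29A1, a nucleoside transporter that takes up adenosine, stood at 550, 563 and 549 CPM against 212, 277 and 214 CPM (-1.25 ± 0.21 SE, adjusted p = 0.030), with the narrowest control range of these genes. CTSH, the lysosomal protease cathepsin H, stood at 417, 322 and 427 CPM against 123, 162 and 124 CPM (-1.52 ± 0.23 SE, adjusted p = 0.019). RAMP2, a partner of the calcitonin-like receptor in binding adrenomedullin (-1.59 ± 0.28 SE), CYGB, cytoglobin (-1.46 ± 0.26 SE), the surface antigen XG (-1.62 ± 0.25 SE) and SH3D21 (-2.01 ± 0.32 SE) completed the set with MFAP5. RAMP2 is also an endothelial marker and held 333 UMIs in the members, where of the same list EGFL7 had 51 (log2 fold change 0.82 ± 0.78 SE, edgeR adjusted p = 0.81), VWF 16, CDH5 1 and CLDN5 0, with PECAM1 at 0 by the rule. Their part in RAMP2 and KDR was not tested.

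**Figure D3:**
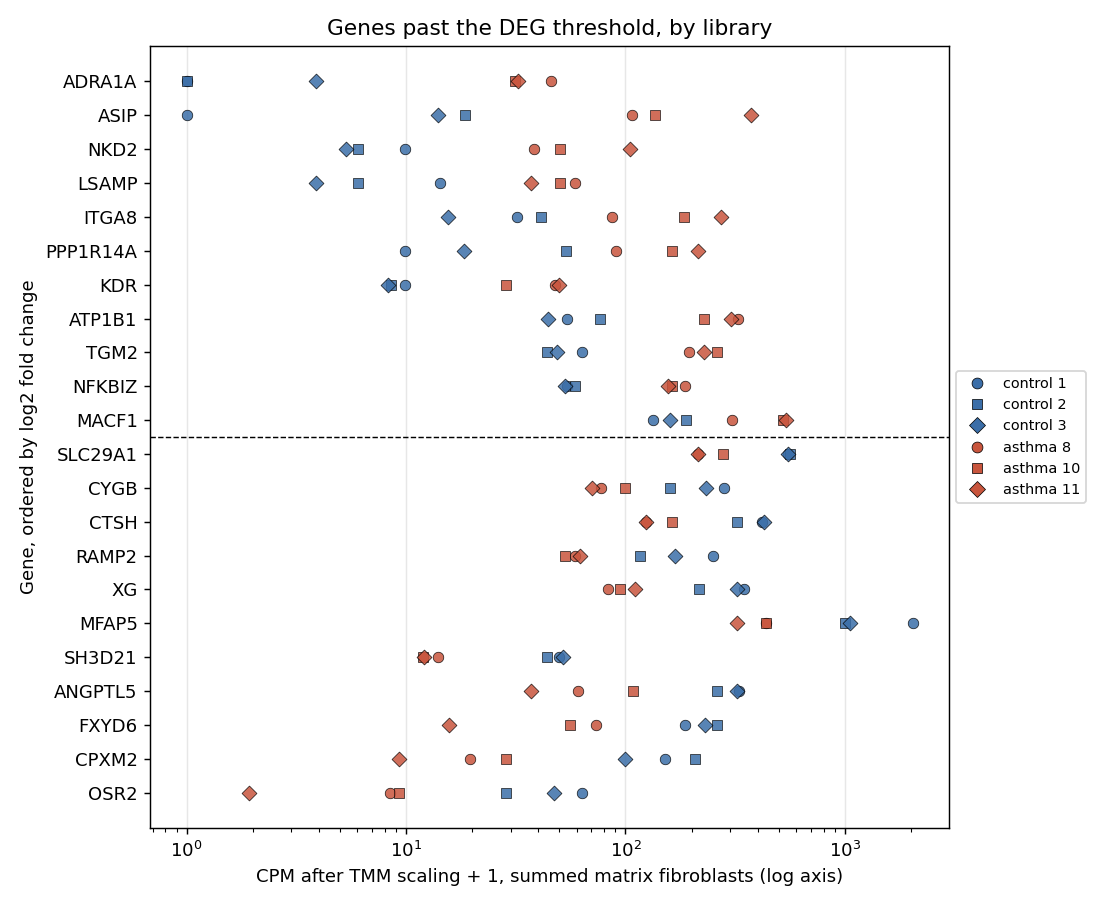
Level of the 22 DEGs in the summed matrix fibroblasts of each library, in CPM after TMM scaling plus 1 on a log axis, ordered by log2 fold change (control blue, asthma red, 1 marker shape per library). For each gene the asthma libraries lie on 1 side of the control libraries, with the 11 up-regulated genes above the dashed line and the 11 downregulated genes under it.

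In values pooled over libraries, the DEGs had the direction of the difference between the leanings. MFAP5 and ITGA8, which define the leanings, were left out. The other DEGs were called on sums that include these same cells, between groups whose leaning shares differed. Their direction is thus no independent evidence, and how many of all tested genes have such a direction was not counted. In the pooled asthma cells all 10 up-regulated genes were higher in alveolar-leaning than in adventitial-leaning cells, and all 10 downregulated genes were lower. Asthma 11 gave 144 of the 201 alveolar-leaning and 59 of the 123 adventitial-leaning asthma cells, and the direction within each library was not tested. In the control libraries, on 21 alveolar-leaning cells, the same held for 9 of 10 up-regulated genes, ADRA1A having no UMI in either, and for 9 of 10 downregulated genes, CTSH being the exception. Of the 3580 SFTPC UMIs in this base, 1 cell of control 1 held 3565. The 21 cells summed to 29013 plain CPM of SFTPC, 981 CPM of ITLN1 and 851 CPM of the epithelial KRT19, which are RNA of other cell types. Leaving out the members rich in epithelial or mesothelial markers reduced them from 7 in each control library to 4, 5 and 6, and the part of this RNA in the levels was not tested. In the asthma group, alveolar-leaning cells carried epithelial RNA as well, with AGER at 229 plain CPM against 2.82 CPM in adventitial-leaning cells. SFTPC stood there at 972 and 243 CPM, and the part of this RNA was not tested. Of the AGER UMIs of the asthma members, 199 came from asthma 11 and 2 each from asthma 8 and 10. ASIP stood at 587 plain CPM in alveolar-leaning and 5.65 CPM in adventitial-leaning cells of the asthma group, TGM2 at 416 and 55.1 CPM, and MACF1 at 832 and 184 CPM. CPXM2 stood at 6.99 and 29.7 CPM, and SLC29A1 at 105 and 371 CPM. In adventitial-leaning cells CPXM2 was at 33.2 and 67.6 CPM in asthma 8 and 10 but at 3.86 CPM in asthma 11, below the pooled alveolar-leaning level.

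Within a leaning no gene was called. In adventitial-leaning cells none of 3861 genes was called by edgeR (194 at an unadjusted p under 0.05), and the 12 DEGs that could be tested there kept their direction, at a median of 0.692 times their log2 fold change in all members. CPXM2 was at -2.32 ± 0.56 SE in these cells, ATP1B1 at 2.09 ± 0.58 SE, NFKBIZ at 1.22 ± 0.32 SE and TGM2 at 1.13 ± 0.43 SE, whereas MACF1 (0.38 ± 0.24 SE) and SLC29A1 (-0.60 ± 0.30 SE) were at less than 0.5 times their values in all members. In alveolar-leaning cells, where libraries of 7 cells had to be admitted, none of 1361 genes was called by edgeR (110 at an unadjusted p under 0.05) and 7 of 7 testable DEGs kept their direction, at a median of 0.749 times their log2 fold change in all members, among them NFKBIZ (0.66 ± 0.49 SE), ASIP (2.31 ± 0.64 SE), MACF1 (1.72 ± 0.43 SE) and PPP1R14A (2.76 ± 0.56 SE). The cells of these fits are part of those that gave the DEGs, so that the shared direction is no independent evidence, and the fits have fewer UMIs.

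**Figure D4:**
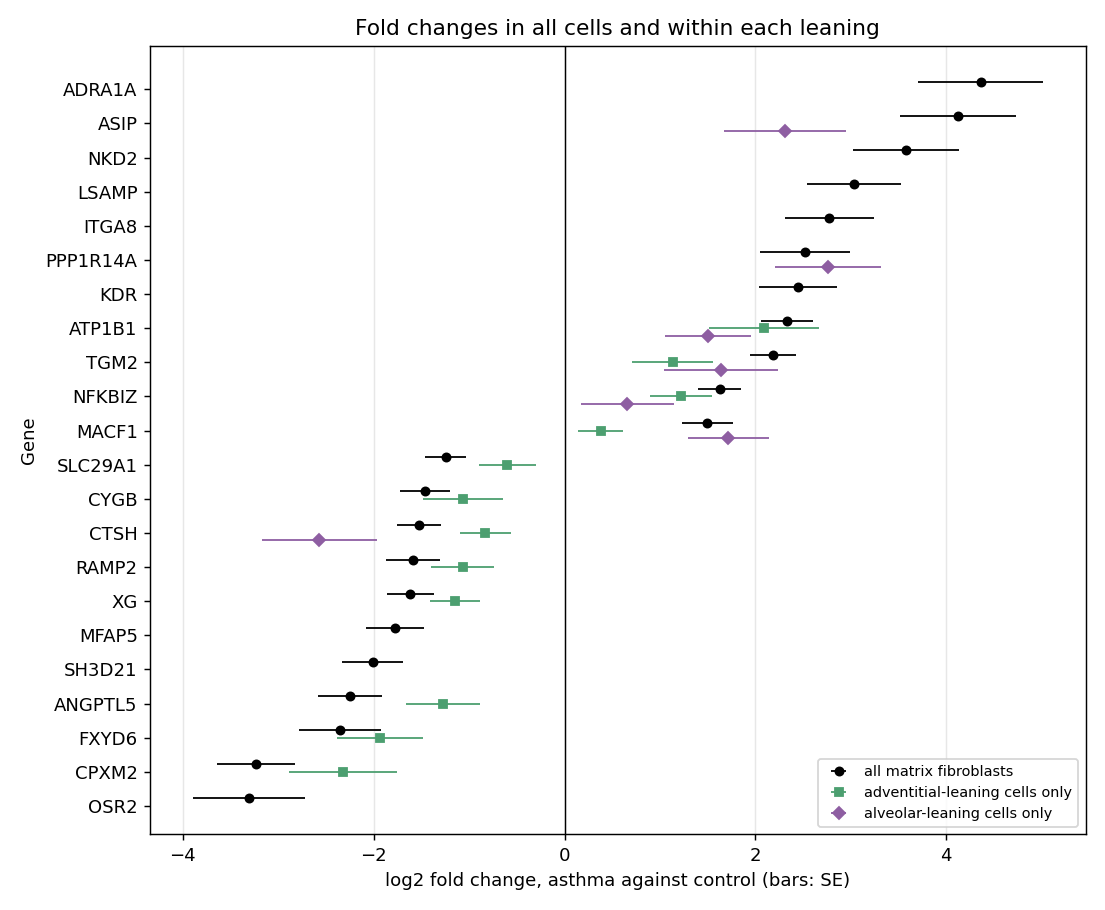
Log2 fold change of asthma against control with its SE for the 22 DEGs in all matrix fibroblasts (black) and, where the gene could be tested, in adventitial-leaning cells (green, 12 genes) and alveolar-leaning cells (purple, 7 genes). All points lie on the same side of 0 as the black one, and MACF1 falls from 1.49 in all members to 0.38 in adventitial-leaning cells.

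The fixed lists of matrix genes, which do not include MFAP5, held 1 DEG, TGM2. Of 9 tested collagens outside the rule, 5 were higher and 4 lower (median log2 fold change 0.06), none a DEG. The groups were separate for COL6A3 (31.1, 42.7 and 36.2 CPM against 70.7, 76.9 and 102 CPM, 1.18 ± 0.27 SE, adjusted p = 0.092) and COL16A1 (0.72 ± 0.25 SE, adjusted p = 0.30). Of 7 basement membrane genes (median -0.17) none was a DEG, with LAMB1, a laminin chain, at 288, 367 and 274 CPM against 491, 464 and 526 CPM (0.67 ± 0.21 SE, adjusted p = 0.26) and LAMB2 at -0.69 ± 0.28 SE. Elastic fibre genes (10 tested, median -0.24) were mixed, with EMILIN1 higher in every asthma library (1.01 ± 0.26 SE, adjusted p = 0.13) and EFEMP1 (-0.88 ± 0.32 SE) and LTBP4 (-0.36 ± 0.25 SE) lower, none past the threshold. The 10 proteoglycan and hyaluronan genes had a median of -0.15 with 8 of them lower. OMD, osteomodulin, stood at 506, 576 and 311 CPM against 195, 225 and 206 CPM (-1.15 ± 0.25 SE, adjusted p = 0.091), SDC2, a syndecan, was at -0.52 ± 0.22 SE, and PRELP overlapped.

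Of 9 matricellular genes 7 were higher (median 0.26), with FN1, fibronectin, at 0.55 ± 0.30 SE and THBS1, thrombospondin 1, at 0.83 ± 0.37 SE, both overlapping. Among 11 genes of collagen processing and cross-linking (median 0.15) TGM2 was the DEG. The 11 proteases and inhibitors had a median of -0.48, with 8 lower. CTSK, cathepsin K, was at -0.89 ± 0.30 SE (adjusted p = 0.28), and A2M, with the largest log2 fold change of the list, was just short of the threshold.

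The fixed lists of NF-kB, chemokine, cytokine, receptor and complement genes held 1 DEG, NFKBIZ. The 7 tested genes of NF-kB and adhesion had a median log2 fold change of 1.15, with 5 higher. NFKBIA, ICAM1 and VCAM1, named after their values were seen, were highest in asthma 8, where ICAM1 stood at 153 CPM against 33 and 41.5 CPM in asthma 10 and 11 and 17.4 to 26.6 CPM in the control libraries (1.95 ± 0.58 SE, adjusted p = 0.22). Asthma 8 also had the highest sum of mesothelial markers of the asthma libraries (536 CPM, against 870 CPM in control 1). The part of this RNA in these levels was not tested. Of 19 listed chemokines only 4 had enough UMIs. CCL11, eotaxin 1, which attracts eosinophils, stood at 146, 55.3 and 98.4 CPM in the control and at 166, 712 and 424 CPM in the asthma libraries (2.15 ± 0.48 SE, adjusted p = 0.091). Single cells held 25 of the 33 CCL11 UMIs of control 1 and 35 of the 68 of control 3. It was detected in 23.8% of members (8.27 to 36.9% by library) and 0.235% of T cells, and alveolar-leaning cells carried more of it than adventitial-leaning cells, at 748 and 123 plain CPM in the asthma group. CXCL12 overlapped (0.78 ± 0.30 SE, adjusted p = 0.37).

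C3, the central complement component, stood at 1278, 885 and 1904 CPM against 5716, 5063 and 2864 CPM (1.74 ± 0.36 SE, adjusted p = 0.060). The 6 tested complement genes had a median of -0.26 with no DEG. Of 4 tested cytokines and alarmins (median 0.05), IL33 overlapped (59.1 to 437 CPM), as did IL34, and TNFSF10 was at -1.20 ± 0.38 SE (adjusted p = 0.26), while TSLP had no UMI. Of 8 cytokine receptors and type 2 signalling genes (median 0.19), TNFRSF1A, the TNF receptor 1, was higher in every asthma library (0.76 ± 0.24 SE, adjusted p = 0.26) and IL1R1 and IL6ST overlapped.

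The fixed lists of TGF-beta, WNT and BMP, and growth factor genes, which do not include the DEGs KDR and NKD2, held no DEG. Of 13 TGF-beta genes (median 0.01), BAMBI, a decoy receptor, stood at 26.6, 32.7 and 26.1 CPM against 54, 65.9 and 96.9 CPM (1.38 ± 0.31 SE, adjusted p = 0.094), TGFBI, a secreted matrix protein, at 342, 153 and 266 CPM against 125, 54.9 and 37.8 CPM (-1.82 ± 0.41 SE, adjusted p = 0.094), and TGFBR3 overlapped. Of 9 WNT and BMP genes (median 0.03), WNT2B, a WNT ligand, stood at 48.8, 37.7 and 29 CPM against 3.72, 11 and 7.38 CPM (-2.33 ± 0.44 SE, adjusted p = 0.052), SFRP4, a secreted WNT inhibitor, was lower as well (-1.54 ± 0.42 SE, adjusted p = 0.16), and DKK3 overlapped. Of 15 growth factors and receptors (median 0.17), IGFBP5, which binds insulin-like growth factors, stood at 5360, 2371 and 4932 CPM against 871, 2206 and 472 CPM (-1.84 ± 0.50 SE, adjusted p = 0.17), and HGF, hepatocyte growth factor, was higher (1.22 ± 0.38 SE, adjusted p = 0.25).

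The fixed lists of metabolic genes held no DEG. Of 9 retinoid and aldehyde genes 8 were higher (median 0.08), with RARRES1, a retinoic acid responsive gene, at 120, 111 and 169 CPM against 908, 269 and 379 CPM (1.94 ± 0.40 SE, adjusted p = 0.065) and ADH1B, an alcohol dehydrogenase, at 1.03 ± 0.30 SE (adjusted p = 0.21). Of 11 prostaglandin and lipid genes (median 0.19), APOE, the lipid carrier, stood at 2410, 3616 and 1413 CPM against 7431, 6750 and 6160 CPM (1.45 ± 0.35 SE, adjusted p = 0.11) and PTGDS, prostaglandin D2 synthase, at 2454, 3525 and 2643 CPM against 5028, 6036 and 9226 CPM (1.23 ± 0.32 SE, adjusted p = 0.14). APOE is also made by macrophages, and T cells carried 1458 plain CPM of it against 4720 CPM in the members, and the part of free RNA in its level was not tested.

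The fixed lists of stress, interferon, transcription factor and contractile genes held 1 DEG, OSR2. The 15 immediate-early genes had a median of 0.03 and no DEG, with FOS at 1008 to 2756 CPM in the control and 1470 to 1893 CPM in the asthma libraries, EGR3 at 1.17 ± 0.43 SE and NR4A2 at 1.66 ± 0.51 SE (adjusted p = 0.24). The 12 heat shock genes had a median of -0.10, with HSP90AA1 (-0.46 ± 0.22 SE) and HSPH1 (-0.83 ± 0.31 SE) lower in every asthma library but not past the threshold. Of 12 tested interferon-stimulated genes 11 had a positive log2 fold change, at a median of 0.20. The 18 genes of that list summed to 861, 679 and 611 CPM in control 1, 2 and 3 and to 1627, 495 and 630 CPM in asthma 8, 10 and 11, so that asthma 8 alone lay above the controls. IFI27 was high in asthma 8 only (378 CPM, against 46.7 and 25.8 CPM in asthma 10 and 11), with a log2 fold change of 3.14 ± 0.96 SE and an adjusted p of 0.24, while IFI6 and IFIT2 overlapped. Of 13 mesenchymal transcription factors (median 0.36), OSR2 fell and 9 were higher. The 6 tested contractile genes had a median of 0.37, with TAGLN, transgelin, at 785, 327 and 460 CPM against 959, 1187 and 1374 CPM (1.18 ± 0.31 SE, adjusted p = 0.15) and LMOD1, leiomodin, at 1.28 ± 0.51 SE.

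**Figure D5:**
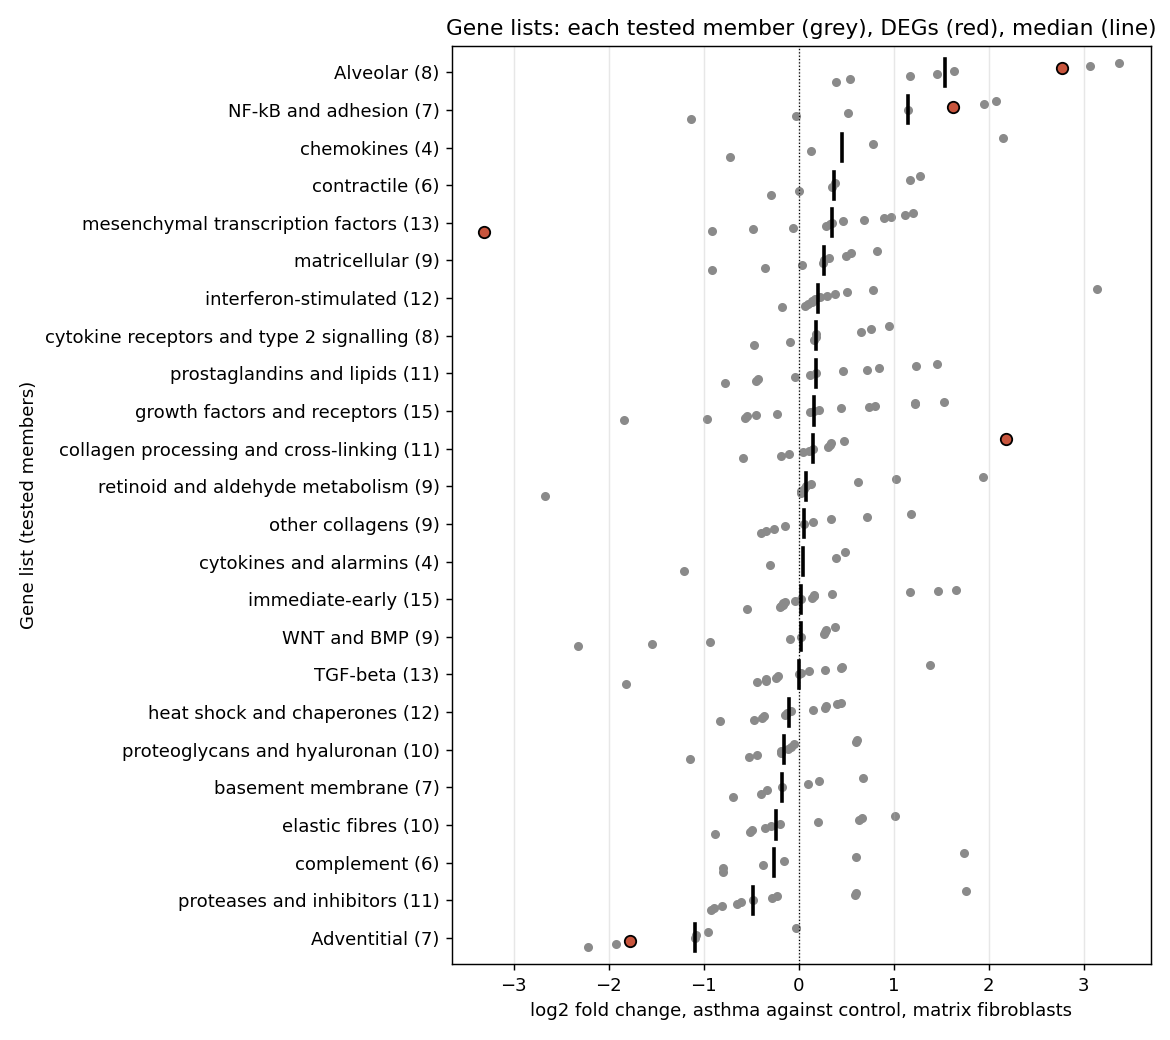
Log2 fold change of asthma against control in matrix fibroblasts for every tested gene of each list with at least 4 tested genes (grey points, DEGs red, black line at the median of the list, tested genes in brackets). The adventitial and alveolar lists lie at the ends, with medians of -1.09 and 1.55, and the other lists have medians from -0.48 to 1.15.

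The class most like the members by rule was the 244 SOSTDC1 cells, which met the same rule but had a SOSTDC1 UMI (44, 10 and 53 in control 1, 2 and 3 and 13, 10 and 114 in asthma 8, 10 and 11). Matrix fibroblasts differed from them in levels, for which no test was made since the classes were set by expression. In plain CPM pooled over libraries, C3 stood at 2927 in matrix fibroblasts and 1391 in SOSTDC1 cells, and PDGFRA at 110 and 344. By library both overlapped, C3 at 765 to 5383 and 7.05 to 3195 CPM, and PDGFRA at 56.5 to 140 and 57.6 to 409 CPM. The libraries of the classes were separate for the next 3 genes. ACTA2, smooth muscle actin, stood at 24.6 and 493, TNC, tenascin C, at 7.34 and 184, and ASPN, asporin, at 3.82 and 173. The asthma effect of the 2 classes was compared by an interaction term with the library as a block, in which 3 of 5408 genes (0.0555%) passed an adjusted p of 0.05.

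Of the 21 DEGs that entered this test, none had an effect that differed between the classes at that threshold. NKD2 (difference -2.21 ± 0.73 SE) and KDR (difference -2.57) were apart at an unadjusted p of 0.0050 and 0.016 (edgeR). FXYD6 (1.13), CYGB (1.01), NFKBIZ (-1.15) and ITGA8 (-1.39) were apart at an unadjusted p of 0.028 to 0.034 (edgeR). Each of these differences was opposite in sign to the log2 fold change in matrix fibroblasts. The SE of the differences was between 0.37 and 2.65, with only 10 SOSTDC1 cells in control 2 and asthma 10. CCL11 was among the 3 genes that passed. It had 1, 0 and 0 UMIs in the SOSTDC1 cells of control 1, 2 and 3 and 15, 22 and 161 UMIs in those of asthma 8, 10 and 11, a change larger than in matrix fibroblasts by 4.90 ± 0.81 SE on the log2 scale (adjusted p = 0.0019), a size that depends on the prior count of the fit.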

How the data were processed

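Lung cells of 6 monkeys (3 per group, 1 library each, as GEO's labels give them) were analysed. The authors deposited UMI counts per gene and barcode, not normalized, for 35133 called cells, aligned with Cell Ranger to macFas6 (3′ chemistry v3). The submitters' processing notes name Cell Ranger 2.1.1, the file headers 4.0.0 and the methods another version. All 6 libraries of the deposited files were used and 0 sample columns were left out.

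Quality control kept 25388 cells, with 501 to 4999 genes and a share of the 13 mitochondrial genes no higher than 25%. Doublets were not removed beyond the rule; Scrublet (scanpy 1.11.5) scores, 0.8% per 1000 barcodes, served as an alternative. UMIs of members were summed per library and tested with edgeR 4.0.16 in R 4.3.3 (TMM, filterByExpr, quasi-likelihood test, Benjamini-Hochberg over all tested genes), the methods' test across cells not being used because cells are not replicates. SE is the log2 fold change over the root of F. The 18 genes of the rule and the mitochondrial genes stayed in the fit and, where they passed the filter, among the tested genes. Their test results are not given. Shares were compared by exact permutation over 20 assignments. DESeq2 1.42.0 and further settings were alternatives. Each library is labelled as a different monkey. Intervals cover counting error only.

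On simulated data for this comparison with 200 changed genes, 16.5% were recovered at a log2 change of 1 (5707 genes, 8.33% of calls false) and 86% at 2 (5690 genes, 9.47% false), so that changes near 2-fold would mostly be missed. The members, marker lists and 22 gene lists (312 genes) were chosen with earlier results of these data known. Named genes were the genes of the rule, the DEGs with a symbol and separate groups (at most 12 per direction), from each list its DEGs or else the 2 members with the smallest p and the 1 with the most UMIs, and the 5 genes with the most UMIs outside the rule. Of the listed symbols, IGFBP6 and ELN are among those not matched in the gene tables used here. No gene coordinates or sequences are given because no table of the macFas6 build was used.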

Additional observations from a re-analysis of the deposited data

Results flagged for a closer look

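The asthma effect differed between SOSTDC1 cells and matrix fibroblasts, by the interaction term with the library as a block (edgeR), for 3 genes. For the gene ENSMFAG00000039235, which has no symbol in the files, the log2 fold change in SOSTDC1 cells exceeded that in matrix fibroblasts by 6.47 ± 0.93 SE (adjusted p = 0.00052). For SFTPC the difference was 4.96 ± 0.80 SE (adjusted p = 0.0019) and for CCL11 4.90 ± 0.81 SE (adjusted p = 0.0019).

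A single member of control 1 held 254 of the 265 UMIs of ENSMFAG00000039235 and 3565 of the 3662 SFTPC UMIs of that library. When the cells of both classes with at least 20 UMIs of an epithelial or mesothelial marker were left out, a setting chosen after seeing the data, SFTPC differed by -0.46 ± 0.47 SE (adjusted p = 1.0) and ENSMFAG00000039235 had too few UMIs for the test. CCL11 kept a difference of 4.95 ± 0.80 SE (adjusted p = 0.0057) there. Its size depends on the prior count of the fit, since all control SOSTDC1 cells held 1 UMI, and single members held 25 of the 33, 12 of the 22 and 35 of the 68 CCL11 UMIs of control 1, 2 and 3. Of the fits without a library, 4 of 6 called CCL11, and the fit without asthma 11 called no gene.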

How the results depend on the processing

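The groups share no replicate numbers. No paired analysis was possible because control and asthma monkeys carry different numbers (1, 2, 3 and 8, 10, 11). The interaction test, in which both classes come from the same library, called 3 genes with that block and 0 with no replicate block. It called 6 with no filter on low counts, 1 without the cells rich in epithelial or mesothelial markers, and 0 to 5 without a library each.

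The share of matrix fibroblasts differed by 0.977 percentage points, and reversed to -3.03 with PTPRC-negative cells as denominator and to -0.478 without asthma 11. Without 1 library each it ranged from -0.478 to 1.80 points. The adventitial-leaning share kept its direction in all settings run, from -35.0 to -49.7 points without 1 library each.

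Of DEGs, 11 up and 11 down, DESeq2 called 30 and 32 and the fit with no filter on low counts 163 and 131, while adventitial-leaning and alveolar-leaning cells alone gave 0 and 0. Without 1 library each, 0 to 24 genes were up-regulated and 1 to 14 downregulated. The planned fit on alveolar-leaning cells with at least 10 cells per library could not be run, as each control library has 7, and the minimum of 5 was chosen after seeing the data. Without the 18 members rich in epithelial or mesothelial markers 15 and 15 were called, including the 22. With doublets removed 10 and 8 were called, all 18 among the 22, and with at least 4 of 7 matrix genes 11 and 14, including 20 of the 22.

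Among 73 named genes, the log2 fold change reversed as follows, none with an adjusted p under 0.05. In alveolar-leaning cells it was 0.0010 for LTBP4, 1.04 for SDC2, 0.46 for PRELP, 0.64 for CTSK, -1.23 for IL33 and 0.74 for CFD. In adventitial-leaning cells it was 0.0080 for LTBP4, -0.36 for IL6ST and -0.43 for DKK3. DKK3, at 0.03 in all members, was at -0.010 with DESeq2, -0.00012 at a mitochondrial maximum of 10%, -0.027 with at least 4 of 7 matrix genes and -0.0091 without the marker-rich members. Without 1 library each, COL3A1 ranged from -0.88 to 1.68 (control 2 left out), IL33 from -0.39 (asthma 10) to 0.91, DKK3 from -0.34 (asthma 11) to 0.42, FOS from -0.47 to 0.19 (control 1) and IFI6 from -0.36 (asthma 8) to 0.46. The causes were not tested. Control 1 held only 45 members, and genes such as TSLP had no UMI in the members.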
